A study of Mus musculus with 2 samples.

Results

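*Igfbp7*, *Pdzk1ip1*, *Tm4sf5* and *Sdc1* encode secreted or membrane proteins whose transcripts were present in control OT-I cells and lower in Eomes-overexpressing OT-I cells. They are 4 of the 14732 symbols with a value in 1 or both libraries and were chosen from the measured values themselves, for an FPKM of at least 4 in control and a value in Eomes-overexpressing cells of about 0.5 times control or less. FPKM is the number of sequenced fragments scaled to transcript length and library depth. Because these values chose the genes, the levels below describe them and support no test. Both libraries came from CD8+ T cells of OT-I transgenic C57BL/6 mice aged 6 to 8 weeks, whose transgenic receptor is specific for the ovalbumin peptide SIINFEKL. The sources used here do not say whether all cells carried that receptor alone.

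Cells from spleen and lymph nodes received the peptide (2.5 ng/mL) with IL-2 (10 U/mL) for an activation of 24 h and were then spinoculated with a retrovirus. The control received the empty RVKM vector with its human CD2 cassette, and the Eomes group received the same vector carrying *Eomes*. After 48 h the cells that stained for human CD2 were sorted, plated at 40000 per well and stimulated again with peptide and IL-2 at these doses, and RNA was taken 3 days later. Each condition is represented by a single library, and nothing used here says how many mice or wells it pools, so there is no replicate check and no p-value. *Eomes* itself had an FPKM of 2.47 in the control library and 129.6 in the Eomes library, so the targeted gene was higher in the library labelled for it. That level is driven by a viral vector in sorted cells and is not the level of a natural differentiation state.

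Igfbp7 is a secreted protein of the insulin-like growth factor (IGF) binding protein superfamily, best known from vascular and stromal cells, that is also found bound to extracellular matrix. Pdzk1ip1, also called MAP17, is a small membrane protein that binds PDZ domain scaffolds and is known from kidney and other epithelia. Tm4sf5 is a membrane protein of the L6 family, whose members cross the membrane several times and resemble tetraspanins in shape. Sdc1 is syndecan-1, also called CD138, a transmembrane proteoglycan whose heparan sulfate chains bind growth factors, chemokines and matrix, whose ectodomain can be shed from the cell, and which is the usual surface marker of plasma cells.

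The region before each transcription start is shown as a description, because the factor raised here is a T-box factor. In the paper, most sites bound by Eomes in overexpressing cells lay in introns or between genes, mostly many kilobases from a start. The windows here do not reach such distances. The stretches below, from RefSeq on mm10, run 5′ to 3′ on the strand of the gene and cover the 150 bases from 250 to 101 bases before the RefSeq start. They lie at chr5:77408146-77408295 on the minus strand, and at chr4:115088458-115088607, chr11:70505024-70505173 and chr12:8771146-8771295 on the plus strand. Capitals mark GGTGT or its reverse complement ACACC, the short core of the sequence that T-box factors recognize.
Igfbp7: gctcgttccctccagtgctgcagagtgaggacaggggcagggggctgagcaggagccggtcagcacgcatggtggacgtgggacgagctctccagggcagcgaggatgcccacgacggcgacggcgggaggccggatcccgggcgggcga
Pdzk1ip1: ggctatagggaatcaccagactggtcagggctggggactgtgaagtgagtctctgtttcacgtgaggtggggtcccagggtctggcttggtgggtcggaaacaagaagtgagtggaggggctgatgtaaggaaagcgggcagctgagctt
Tm4sf5: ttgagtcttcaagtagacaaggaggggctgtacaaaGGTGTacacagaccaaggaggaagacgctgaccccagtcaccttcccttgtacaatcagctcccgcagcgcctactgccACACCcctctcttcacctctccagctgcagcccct
Sdc1: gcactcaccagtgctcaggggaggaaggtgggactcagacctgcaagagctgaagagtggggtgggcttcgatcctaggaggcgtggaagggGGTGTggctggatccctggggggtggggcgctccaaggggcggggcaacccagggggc

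Read over the whole promoter window of 300 bases, from 250 before to 50 after the start, GGTGT occurred on either strand in 3 of the 4 promoters. Of 32851 RefSeq promoters of that length, 41.6% held it, so its presence sets these genes little apart. *Tm4sf5* had it from 214 to 210 and from 135 to 131 bases before the start, and *Sdc1* had it from 158 to 154 bases before the start. The longer T-box letters TCACACC (reverse complement GGTGTGA, which contains GGTGT), present in 3.98% of promoters, were found in 1 of the 4, *Pdzk1ip1*, at bases 29 to 35 of the transcribed sequence. That match is shown in capitals with its flanks, from chr4:115088726-115088752 on the plus strand.
Pdzk1ip1: gctgaaaatgTCACACCtttccctggg

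The Runx letters TGTGGT (reverse complement ACCACA) and the TATA letters TATAAA (reverse complement TTTATA), held by 16.8% and 13.6% of promoters, were in none of the 4 windows. The windows also differed in base composition. *Igfbp7* had a GC content of 73.3% with 33 CpG dinucleotides, above 91.4% of all promoters in its CpG number, and *Sdc1* had 66.3% with 14 CpG. *Pdzk1ip1* had 55.7% with 3 CpG and *Tm4sf5* had 57.0% with 7 CpG, against a median of 7 CpG over all promoters. The 4 genes thus share neither a CpG-rich nor a CpG-poor promoter. A match of letters is a description of the sequence, and Eomes binding at these loci was not analysed here.

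*Igfbp7* was the most abundant of the 4, with an FPKM of 58.7 in the control library and 14.1 in the Eomes library. The remaining level was 24.0% of control, a log2 ratio of -2.06 (95% counting interval -2.24 to -1.88). About 1345 and 326 reads lie behind these values, as estimated from FPKM, transcript length and library depth. The interval is exact (Clopper-Pearson) on those reads and covers counting error only. The control level placed *Igfbp7* above 89.1% of the genes listed in that library, and the level in Eomes-overexpressing cells above 66.1%. *Igfbp7* (ENSMUSG00000036256.13) spans chromosome 5 of mm10 from 77349240 to 77408041 on the minus strand. Its end overlaps the last bases of *Polr2b*, on the opposite strand, whose FPKM went from 32.8 to 39.8, the other way. An annotated antisense RNA, *Gm34648*, lies within the *Igfbp7* span, and the sources used here do not say whether reads were counted by strand.

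*Pdzk1ip1* had an FPKM of 20.3 in the control library and 5.05 in the Eomes library. It kept 24.9% of its control level, a log2 ratio of -2.01 (interval -2.32 to -1.70), on about 438 and 110 reads. The gene (ENSMUSG00000028716.15) lies on chromosome 4 from 115088708 to 115093899 on the plus strand. On the share of the control level that was kept, *Pdzk1ip1* and *Igfbp7* cannot be told apart, since each value lies within the interval of the other.

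*Tm4sf5* was the least abundant, at an FPKM of 4.90 in control, close to the minimum of the rule, and 1.27 in Eomes-overexpressing cells. It kept 25.9% of control, a log2 ratio of -1.95. Only about 94 and 24 reads support that value, and its counting interval of -2.69 to -1.32 is the widest of the 4. Its upper end lies below 0.5 times control, but the same values chose the gene, so this is no check of the decrease. *Tm4sf5* (ENSMUSG00000018919.10) lies on chromosome 11 from 70505244 to 70511178 on the plus strand.

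*Sdc1* had an FPKM of 21.9 in the control library and 10.98 in the Eomes library. It kept 50.2% of control, a log2 ratio of -0.99 (interval -1.13 to -0.86) on about 1320 and 668 reads. The gene (ENSMUSG00000020592.14) lies on chromosome 12 from 8771323 to 8793715 on the plus strand. *Sdc1* had nearly the control level of *Pdzk1ip1* and a smaller decrease. Its counting interval does not overlap those of the other 3 genes. The same values chose the genes, so this describes these libraries and is no test between the genes.

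In control the order of levels was *Igfbp7*, *Sdc1*, *Pdzk1ip1* and *Tm4sf5*. The counting intervals of the FPKM of *Sdc1* (20.7 to 23.1) and *Pdzk1ip1* (18.4 to 22.3) overlapped there. In Eomes-overexpressing cells the order was the same and the counting intervals did not overlap. They were 12.6 to 15.7 for *Igfbp7*, 10.2 to 11.8 for *Sdc1*, 4.15 to 6.09 for *Pdzk1ip1* and 0.81 to 1.89 for *Tm4sf5*. Levels of different genes also depend on the transcript lengths used, which these intervals leave out. The same values chose the genes, so no difference in level between them was tested. Summed over the 4 genes, the FPKM was 105.7 in the control library and 31.4 in the Eomes library. In bulk RNA, fewer cells that make a transcript and less of it per cell cannot be told apart.

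**Figure D1:**
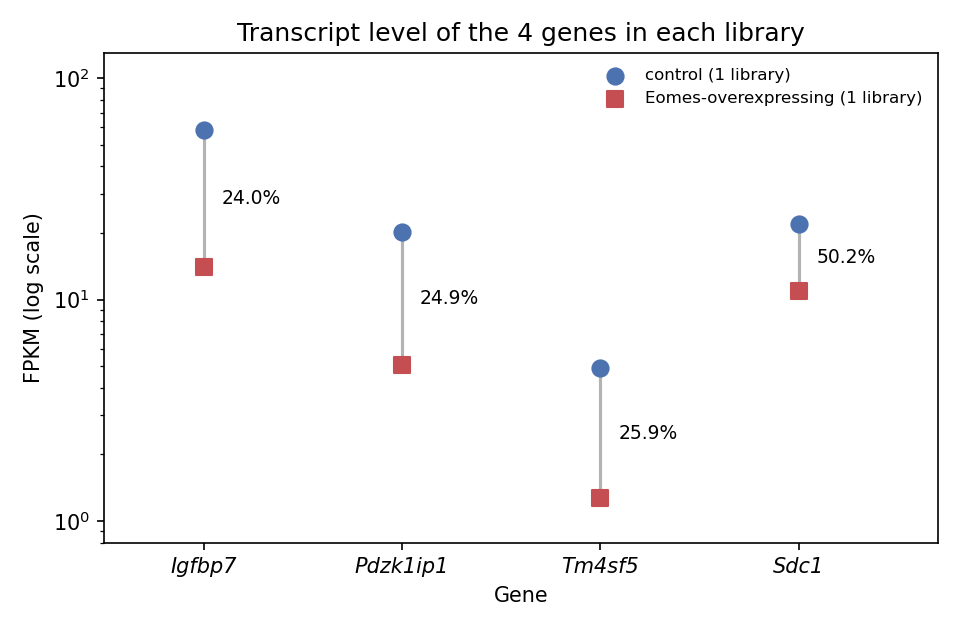
FPKM on a log scale (vertical) of the 4 genes (horizontal) in the control library (blue circles) and the Eomes library (red squares), 1 library each, with the percentage of the control level that remained. *Igfbp7*, *Pdzk1ip1* and *Tm4sf5* kept 24.0 to 25.9% over control levels from 4.90 to 58.7, and *Sdc1* kept 50.2%.

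The rule's cut was set at an FPKM of 4 in control, which 7780 genes reached. Of these, 67 genes (0.861%) were at 0.5 times control or less in Eomes-overexpressing cells, and 3 of the 4 genes described here are among them. The rule fixed that count, and nothing is read from it. The other is *Sdc1*, at 0.502 times control, which is the gene nearest to the cut on its upper side. Next above it were *C1qtnf12* at 0.504 and *Hvcn1* at 0.505, and the genes nearest to the cut on its lower side were *Tnp2* at 0.489, *Cxcr4*, a chemokine receptor, at 0.488 and *Gucy1a1* at 0.487. A decrease of more than 1.5-fold was seen for 240 of the 7780 genes (3.08%). All 4 genes here are among them, which the rule also fixed. Of all 9925 genes at an FPKM of at least 1, 50.5% were lower by any amount.

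The other 3 genes were far from the cut. Ordered from the lowest ratio upward among the 7780 genes, *Igfbp7* was at position 3, *Pdzk1ip1* at 4, *Tm4sf5* at 5 and *Sdc1* at 68. A ratio of 0.25 or less was found for 4 genes (0.0514%), which were *Igfbp7*, *Pdzk1ip1*, the cytokine gene *Il13* (FPKM 10.3 and 0.59) and *Cd74* (FPKM 20.2 and 4.82). With other pseudocounts, scalings and GC centring, *Igfbp7* was at 24.0% to 25.8% of control and *Pdzk1ip1* at 24.8% to 28.4%, so each was above 0.25 times control under some of them. *Il13* was not part of the naming rule and is given because the count is small. The share of genes at 0.5 times control or less was larger at low control levels. At a control FPKM of 4 to under 8, where *Tm4sf5* lies, it was 1.6%. It was 1.32% at 8 to under 16 and 0.14% at 64 or more. At 16 to under 32, where *Pdzk1ip1* and *Sdc1* lie, it was 0.638%, and at 32 to under 64, where *Igfbp7* lies, it was 0.402%. The median log2 ratio was -1.98 over the 4 genes and -0.0086 over the 7780, a gap that follows from the rule.

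**Figure D2:**
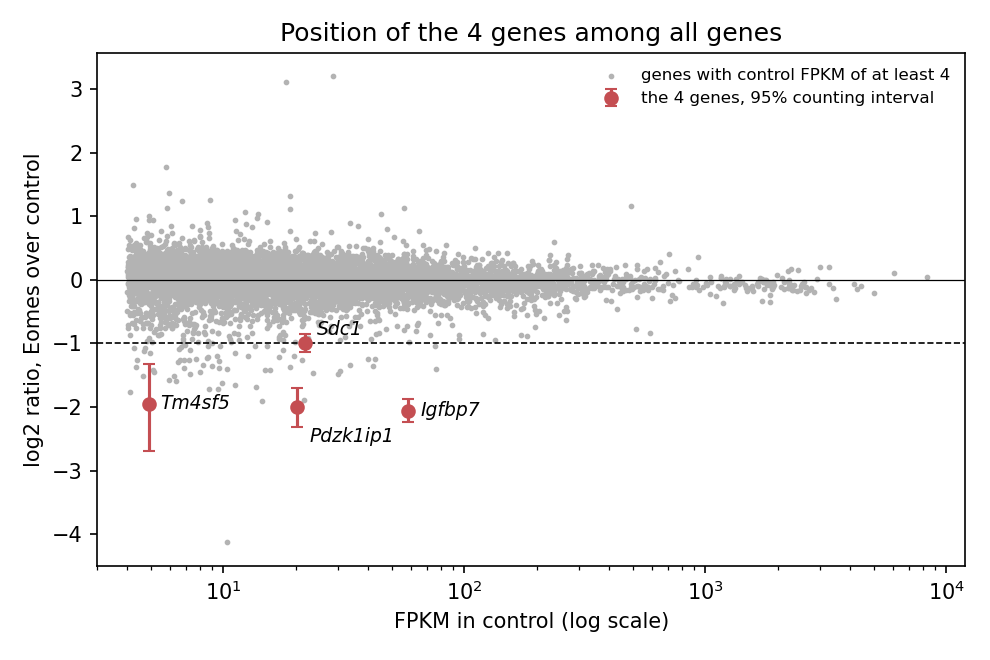
Log2 ratio of Eomes-overexpressing over control (vertical) against FPKM in control on a log scale (horizontal) for the 7780 genes with an FPKM of at least 4 in control, with the 4 genes in red and their 95% counting intervals. The dashed line marks 0.5 times control, and *Igfbp7*, *Pdzk1ip1* and *Tm4sf5* lie about 1 log2 unit below it, with *Sdc1* on it.

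Other genes with nearly the same pair of levels were looked up in the plane of the log2 values of both libraries, over 9562 genes with an FPKM of at least 1 in each. *Pdzk1ip1* had the closest company among the 3 most lowered genes. *Cd74*, the invariant chain of MHC class II, was 0.07 log2 units away, and *Csf2*, which encodes the cytokine GM-CSF, 0.22 units away (FPKM 21.6 and 5.80). The third was *Ckb*, brain-type creatine kinase, at 0.44 units. No gene came as close to *Igfbp7*. The nearest was *Ccr7*, the lymph node homing receptor, at 0.53 units (FPKM 41.9 and 16.4), followed by *Ttc39c* and *St6gal1* at 0.58 and 0.61. For *Tm4sf5* the nearest were *Slc15a3*, *P4ha2* and the chemokine receptor gene *Ccr10*, at 0.27 to 0.38 units. *Sdc1* lay in a dense part of the plane, with *Tagap* only 0.03 units away (FPKM 21.5 and 11.1), then *Maats1* at 0.11 and *Dgat1* at 0.18. With 2 libraries, likeness of this kind says that 2 levels match and no more.

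Families and partners of the 4 genes were then examined. Of 96 related genes in 7 lists, 48 had an FPKM of at least 1 in 1 or both libraries. Among these, 7 (14.6%) were more than 1.5-fold lower and 1 was more than 1.5-fold higher in Eomes-overexpressing cells, against 5.19% lower and 2.46% higher of all 9925 genes at that level. The median log2 ratio was -0.12 over the 48 and -0.0037 over the 9925. With 1 library per condition, these shares describe the 2 libraries.

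The other IGF binding protein genes were low. Of *Igfbp1* to *Igfbp6* and *Igfbpl1*, only *Igfbp4* reached an FPKM of 1, at 1.15 and 0.39. Its log2 ratio of -1.56 rests on about 84 and 29 reads (interval -2.21 to -0.92), in the same direction as *Igfbp7*. The ligand genes *Igf1* and *Igf2* were at an FPKM of 0.03 or less in both libraries, and the receptor gene *Igf1r* was at 0.28 and 0.12. *Igf2r*, the mannose 6-phosphate receptor that takes IGF2 to lysosomes, was abundant, at 51.5 and 40.7, a log2 ratio of -0.34. The insulin receptor gene *Insr* was at 1.66 and 1.09, and *Irs2*, a docking protein of both receptors, at 1.0 and 0.69.

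The list also held genes on the outer edge of this family. *Cd93*, which encodes a cell-surface receptor of Igfbp7, was at 0.73 and 1.03. *Esm1*, a secreted proteoglycan with an IGF binding protein-like domain, was the gene of the list that rose by more than 1.5-fold, from 5.94 to 15.4, a log2 ratio of 1.37 (interval 1.15 to 1.59). Of the 6 genes of the IGF list at an FPKM of 1 or more, 2 were more than 1.5-fold lower (*Igfbp4* and *Insr*, the latter within 1.5-fold when scaled to TPM), 1 was higher and 3 lay within 1.5-fold. Among all 9925 genes at that level, 5.19% were more than 1.5-fold lower and 2.46% higher.

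The PDZ scaffold partners of Pdzk1ip1 kept levels close to control. *Slc9a3r1*, which encodes the scaffold NHERF1, was at 89.9 and 80.5 (log2 ratio -0.16). *Pdzk1*, the scaffold for which Pdzk1ip1 is named, was at 2.92 and 2.75, and *Slc9a3r2* at 1.29 and 1.18. All 3 lay within 1.5-fold, as most of the 9925 genes did. The sodium-glucose transporter gene *Slc5a1* was at 0.01 in both libraries, and *Slc5a2*, whose protein uses Pdzk1ip1 as an accessory subunit in kidney, was not listed for either.

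*Tm4sf5* stood alone in its family. *Tm4sf1* and *Tm4sf19* were below an FPKM of 0.4 in both libraries, and *Tm4sf4* and *Tm4sf20* were not listed. The tetraspanins, a separate family of proteins with a similar layout, were abundant instead, with 16 of 26 genes at an FPKM of 1 or more and a median log2 ratio of -0.24. Of these 16, 3 were more than 1.5-fold lower, 0 were higher and 13 lay within 1.5-fold, against 5.19% lower and 2.46% higher of all 9925 genes. *Cd81*, a partner of several lymphocyte receptors, was at 30.04 and 10.8, and its log2 ratio was -1.48 (interval -1.67 to -1.30). *Tspan2* was at 2.79 and 1.39, and *Tspan6* at 5.16 and 2.91. *Cd82*, the tetraspanin with the highest level, was at 266.2 and 190.1, and *Cd53*, *Tspan31* and *Cd37* were at 91.1%, 93.2% and 106.8% of control.

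*Sdc1* was the dominant syndecan. *Sdc2* was at 0.05 in both libraries, *Sdc3* at 0.94 and 0.45, and *Sdc4* at 1.19 and 0.70. The glypican *Gpc1*, a heparan sulfate proteoglycan with a lipid anchor, was at 6.13 and 3.62, and its log2 ratio was -0.76 (interval -0.97 to -0.55). Both genes of this list at an FPKM of 1 or more, *Sdc4* and *Gpc1*, were thus more than 1.5-fold lower, in the same direction as *Sdc1*. The interval of each reached inside 1.5-fold, and 5.19% of all 9925 genes were lower by as much.

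The enzymes that build heparan sulfate on these core proteins had levels near control, as most genes did. Of all 9925 genes at an FPKM of 1 or more, 5.19% were more than 1.5-fold lower and 2.46% more than 1.5-fold higher. The counts within 1.5-fold given next are near those of all genes, and nothing is read from them. Of 22 genes, 15 were at an FPKM of 1 or more and all 15 lay within 1.5-fold, with log2 ratios from -0.23 to 0.32 and a median of -0.03. They included *Ext1* and *Ext2*, the polymerase pair, at log2 ratios of -0.23 and -0.12, and *Ndst1*, which starts the sulfation, at -0.14. The genes that act on the finished proteoglycan were also within 1.5-fold, 6 of 6. Among them, *Sdcbp*, which encodes the syndecan adaptor syntenin, was at 34.6 and 45.1, the sheddase genes *Adam10* and *Adam17* had log2 ratios of 0.21 and 0.05 (for *Adam17* -0.04 after centring on GC content), and *Hpse*, heparanase, was at 1.80 and 1.75.

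**Figure D3:**
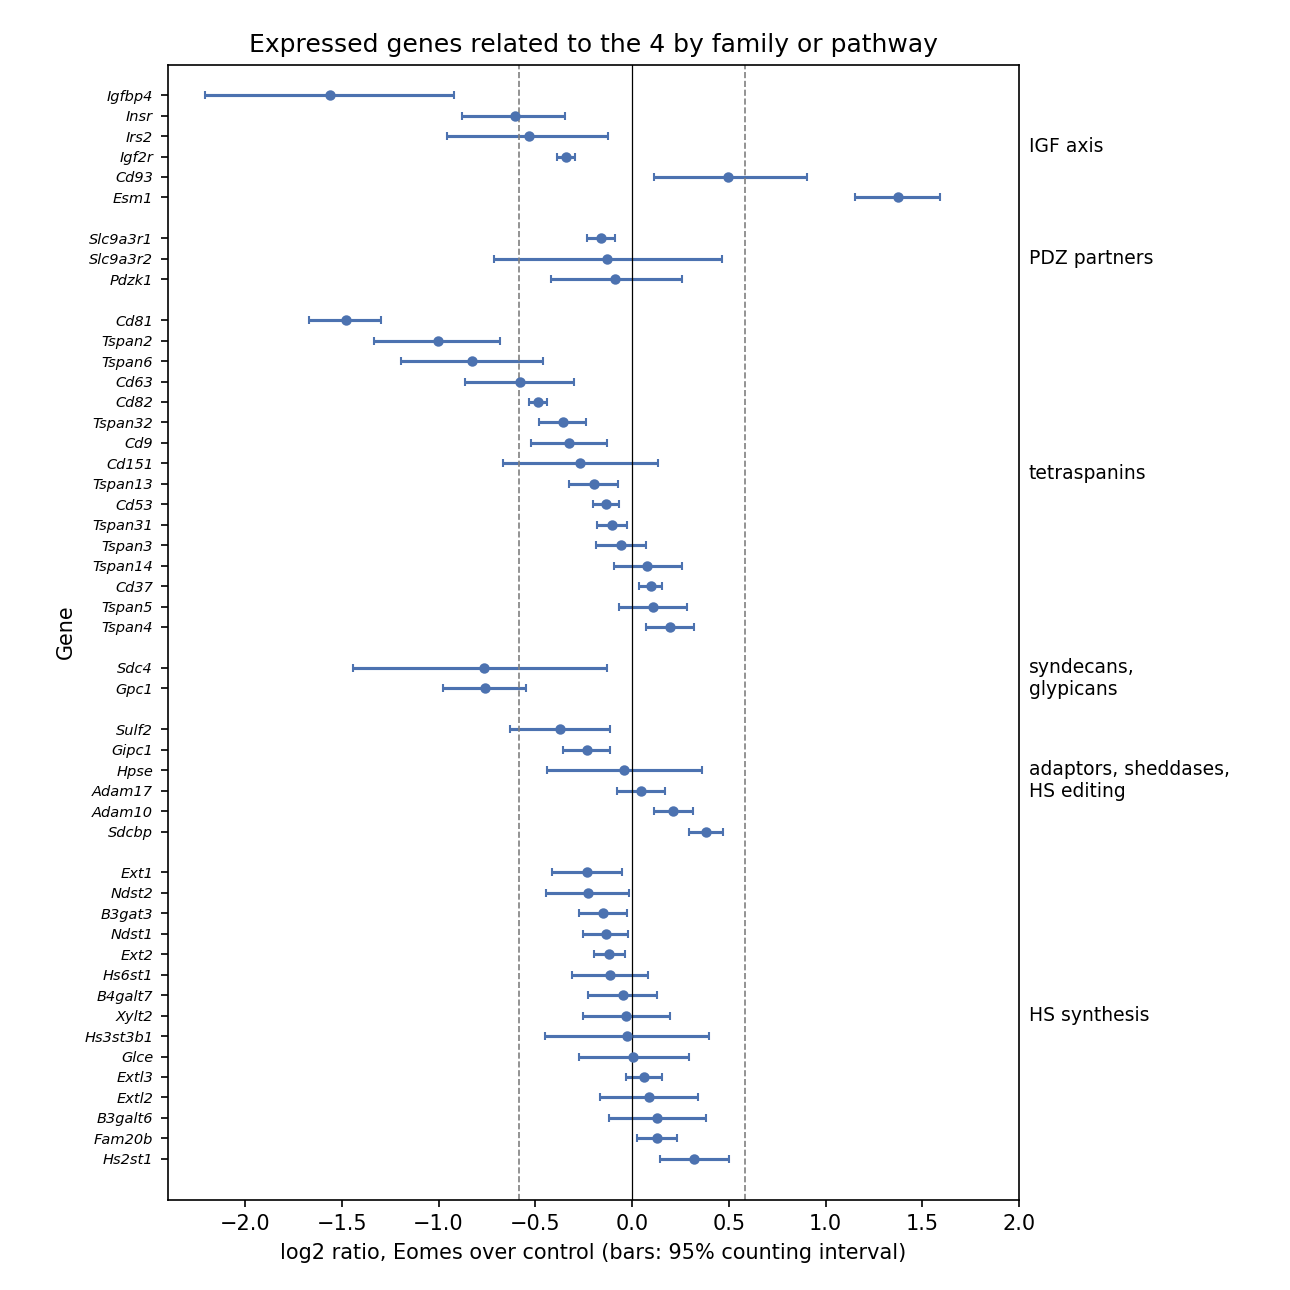
Log2 ratio of Eomes-overexpressing over control (horizontal) with 95% counting intervals for the 48 related genes at an FPKM of at least 1 in 1 or both libraries (vertical), grouped by list, where HS is heparan sulfate. Dashed lines mark 1.5-fold, and all 15 heparan sulfate synthesis genes lie between them while *Igfbp4* and *Cd81* lie lowest.

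The 4 genes lie on 4 different chromosomes, and their nearest expressed protein-coding neighbours were read as a description. The 2 neighbours on each side of each gene gave 16 genes with log2 ratios from -0.65 to 0.58 and a median of 0.11. Of these, 9 were higher and 7 lower, and 15 lay within 1.5-fold. Of all 9925 genes at an FPKM of at least 1, 50.5% were lower by any amount. More than 1.5-fold lower were 5.19%, and more than 1.5-fold higher 2.46%. The neighbour counts are near these shares, and nothing is read from them. *Noa1* and *Polr2b*, beside *Igfbp7*, had log2 ratios of -0.03 and 0.28, while on its other side the nearest expressed gene, *Cenpc1*, started 8658 kb away. *Stil*, the nearest expressed gene before *Pdzk1ip1*, was at 0.39, while *Efcab14* and *Atpaf1*, on the other side of *Pdzk1ip1*, started 649 and 696 kb away. Beside *Tm4sf5*, *Med11* and *Psmb6* had log2 ratios of -0.19 and -0.17, and *Pld2*, 34.8 kb away, was the neighbour that fell by more than 1.5-fold, from an FPKM of 2.19 to 1.40. Beside *Sdc1*, *Pum2* was at 0.33 and *Laptm4a* at -0.19. After centring on genes of similar GC content, *Pld2* was at -0.56 and within 1.5-fold, and *Rhob*, on the other side of *Pum2* from *Sdc1*, was at 0.67 and beyond it. *Noa1* and *Cmpk1* changed sign, to 0.03 and -0.08.

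**Figure D4:**
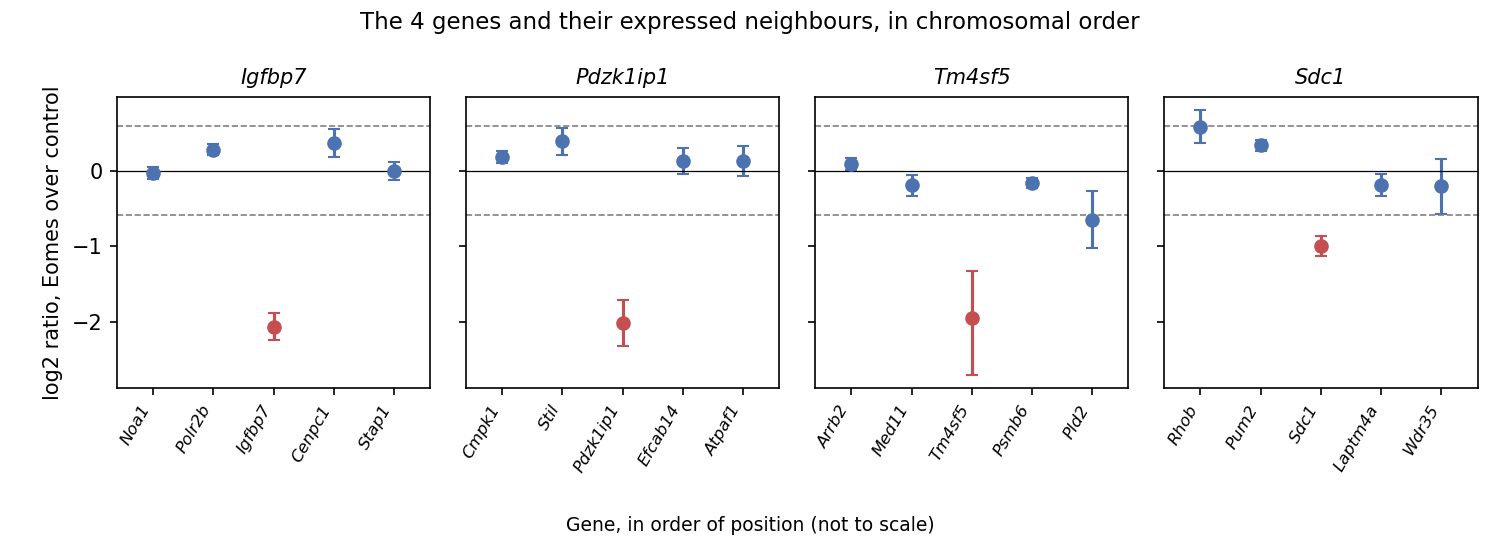
Log2 ratio of Eomes-overexpressing over control (vertical) with 95% counting intervals for each of the 4 genes (red) and the 2 nearest expressed protein-coding genes on either side (blue), in chromosomal order (horizontal, not to scale). Dashed lines mark 1.5-fold, and each red point lies below all 4 of its blue neighbours.

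The transcripts of the 4 genes were rich in G and C. GC content was 58.8% for *Igfbp7*, 55.4% for *Pdzk1ip1*, 53.8% for *Tm4sf5* and 55.2% for *Sdc1*. These were above 93.4%, 79.3%, 71.5% and 78.5% of the 9835 expressed genes with a gene model, whose median was 49.7%. Genes of the same GC content as the 4 had median log2 ratios of -0.10, -0.10, -0.08 and -0.10. With that shift taken off, the log2 ratios of the 4 genes were -1.95, -1.90, -1.87 and -0.89. The longest transcripts of *Igfbp7*, *Pdzk1ip1* and *Tm4sf5* were short, at 1200, 1129 and 1000 bases, longer than 7.03%, 6.06% and 4.41% of those 9835 genes. That of *Sdc1* had 3157 bases. No stretch of 50 bases of the first 3 occurs in the same orientation in a transcript of another gene, and 0.97% of those of *Sdc1* do. Reverse complements were not searched, so the overlap of *Igfbp7* with *Polr2b* on the opposite strand is not covered.

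Since *Igfbp7* is known from stroma, *Pdzk1ip1* and *Tm4sf5* from epithelia and *Sdc1* from plasma cells, marker lists of other cell types were read in both libraries. The CD8 T cell list was present in full, 8 of 8 genes, from an FPKM of 123 to 278 in control and 99.1 to 252 in Eomes-overexpressing cells. All 8 had lower values in Eomes-overexpressing cells, and 2 of them, *Cd8a* (log2 ratio -0.88) and *Cd2* (-0.64), by more than 1.5-fold. For comparison, 50.5% of all 9925 genes at an FPKM of at least 1 were lower, and 5.19% by more than 1.5-fold. After centring on GC content *Zap70* was at 0.02 and no longer lower, *Cd2* was at -0.57 and within 1.5-fold, and *Cd3g* was at -0.69 and beyond it. The fibroblast list was under an FPKM of 1 in both libraries for all 7 genes, summing to 2.4 and 2.0, below *Igfbp7* alone in either library. Of 6 endothelial genes only *Pecam1*, which T cells also express, passed an FPKM of 1, while *Cdh5* was at 0.01 in control and not listed for Eomes, *Kdr* was at 0.01 and 0.03, and *Tek*, *Emcn* and *Vwf* were not listed. Of 6 epithelial genes only *Epcam* passed it, at 2.66 and 1.92, with *Krt5* and *Krt8* not listed and *Krt18* at 0.77 and 0.88.

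The B and plasma cell list was mixed. *Cd79a* was at 0.08 and 0.04, *Mzb1* was at 0.22 and 0.06, and *Ms4a1*, *Pax5* and *Tnfrsf17* were not listed. *Jchain*, which encodes the joining chain of antibodies, was at 13.7 and 4.28 (log2 ratio -1.68). *Tnfrsf13b*, the receptor TACI, was at 12.3 and 13.5, and *Derl3* was at 1.53 and 1.23. The list summed to 30.6 and 20.7, with 4 of 10 genes at an FPKM of 1 or more. Of these 4, *Jchain* and *Cd79b* were more than 1.5-fold lower, against 5.19% of all 9925 genes at that level. The part of such cells, and of the lower CD8 T cell markers, in the values of the 4 genes was not tested.

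The myeloid list summed to 4.48 and 6.55, with *Lyz2*, *Csf1r* and *Adgre1* not listed and *Cd68* at 2.68 and 4.59. The progenitor and erythroid list summed to 1.55 and 1.47. The list of CD4 and regulatory T cells summed to 14.3 and 11.8, nearly all of it *Zbtb7b*, while *Cd4* was at 0.03 and 0.08. In the NK cell list, *Nkg7*, which CD8 T cells express as well, was at 649.7 and 785.4, *Fcer1g* at 8.85 and 21.1, and *Klrb1c* at 0.31 and 5.74, while *Ncr1* was not listed. Among markers with an FPKM of 1 or more in control, *Jchain* had the log2 ratio nearest to those of *Igfbp7*, *Pdzk1ip1* and *Tm4sf5*. As reported it was at -1.68, outside their range of -2.06 to -1.95. After centring on GC content its value of -1.94 lay among theirs (-1.95, -1.90 and -1.87), while *Sdc1* was at -0.89. Other B and plasma cell genes at that level lay further away, *Cd79b* at -0.76, *Derl3* at -0.21 and *Tnfrsf13b* at 0.17. *Jchain* is 1 gene picked from the lists, and no cell type is read from it.

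**Figure D5:**
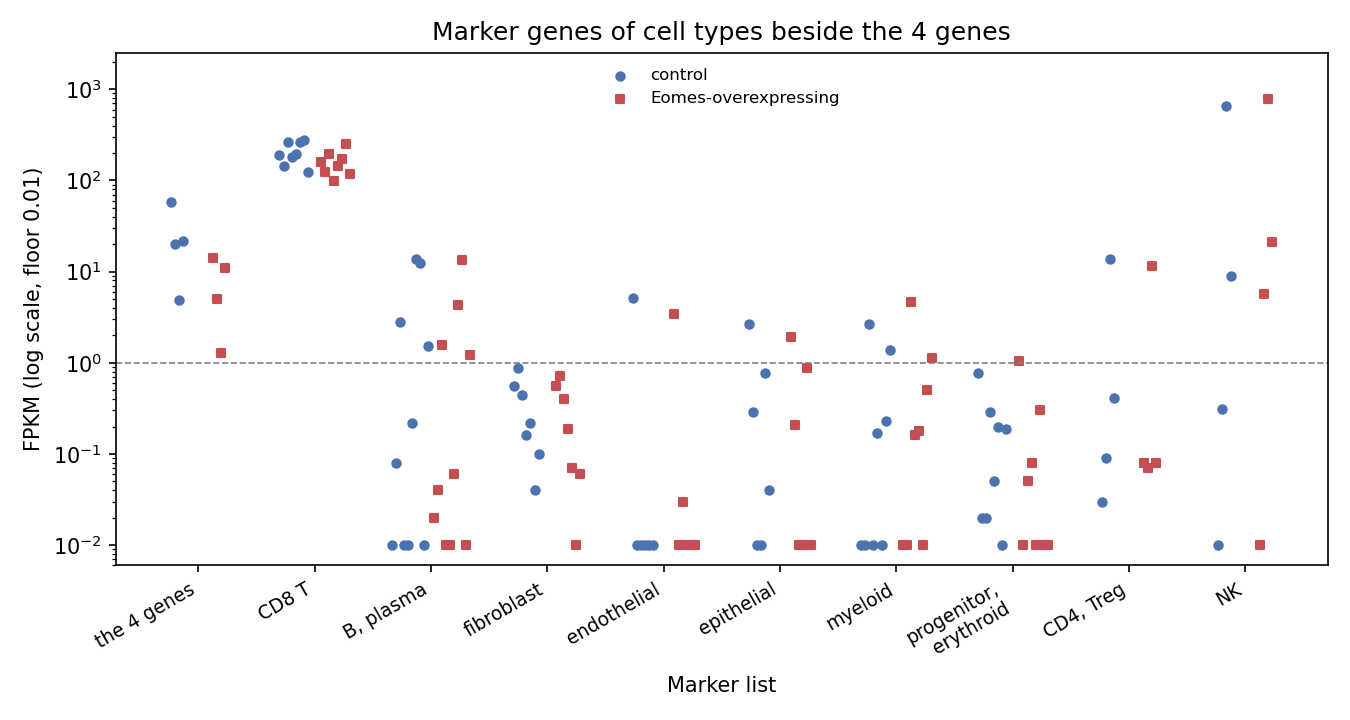
FPKM on a log scale (vertical) of the 4 genes and of each marker gene, by marker list (horizontal), in control (blue circles) and Eomes-overexpressing cells (red squares), with genes not listed drawn at 0.01 and a dashed line at an FPKM of 1. All 8 CD8 T cell markers lie above every one of the 4 genes, and all 7 fibroblast markers lie below the line.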

How the data were processed

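Total RNA of 1 control and 1 Eomes-overexpressing OT-I culture was sequenced on an Illumina HiSeq instrument. The authors filtered reads with SOAPnuke, mapped them to mm10 with HISAT and Bowtie2 (HISAT2 in the submitters' processing notes) and computed expression with RSEM. They deposited FPKM values, called RPKM in their methods, with 2 decimals and from 0.01 upward. Versions and any scaling between the libraries are not given in the sources used here.

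Symbols turned into dates (20 in control, 19 in Eomes) were left out. Values not listed were set to 0.01, and log2 ratios are Eomes-overexpressing over control (Python 3.11.15, numpy 2.4.6, pandas 2.3.3, scipy 1.17.1, matplotlib 3.10.9). Genes with an FPKM of at least 1 in 1 or both libraries were called expressed. Positions, longest transcripts and GC content came from GENCODE vM21 (mm10), matched for 99.0% of symbols. Depth was read from the low values. In genes with 1 transcript of at most 1000 bases, the lowest values pile up at 1 read, which gives 19.1 M reads for control (95% interval 18.2 to 20.2) and 19.3 M for Eomes (18.4 to 19.9). Of the values up to 3 reads, 34 of 50 and 40 of 58 were whole within 0.15 reads. The search started from the depth at which most low values were whole, and the interval used only genes near 1 read there. Neither is therefore an independent check of the depth. Approximate reads are FPKM times longest transcript times depth, and the transcript lengths the authors used are not given in the sources used here. Intervals are 95% exact intervals (Clopper-Pearson for ratios, Poisson for levels), cover counting error only and compare these libraries, not the conditions. In reads simulated for 9835 genes, only the 200 changed genes were scored, and 96.5% of their ratio intervals held the true ratio. Those intervals were given the simulated reads and depth, so errors in the approximate reads were not covered.

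The 4 genes and the gene lists were chosen with earlier results of these data known. Named genes were the 4, genes of fixed lists, the 3 nearest in both levels, 2 expressed neighbours per side, and 3 genes on each side of a ratio of 0.5. The planned use of protein sequences was not run. A single marker gene is not reported here. Alternatives were pseudocounts of 0.1 and 1, scaling by a trimmed mean, TPM or the median, centring in 20 bins of GC content, other minimum values and a 1.5-fold threshold.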

Additional observations from a re-analysis of the deposited data

How the results depend on the processing

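With 1 library per condition, no replicate could be left out, and no p-value exists to gain or lose. No paired analysis was possible because the groups share only 1 replicate number and the values come from no test. The 24 recomputed log2 ratios of the 4 genes, from 6 alternatives each, stayed under 0 and within the counting interval of the value reported. Each alternative reuses the same 2 libraries, and a pseudocount cannot change the sign of a ratio, so this is no check of the decrease. *Igfbp7* and *Pdzk1ip1*, at 0.25 times control or less as reported, reached up to 25.8% and 28.4% of control. *Tm4sf5* moved most, to -1.38 with a pseudocount of 1. *Sdc1* stayed just above 0.5 times control in all 6 (50.1% to 54.0% of control). The number of genes at 0.5 times control or less, 67 at a control FPKM of at least 4, stayed between 53 and 72 under the same 6 alternatives. It was 180 with a minimum of 1, 1453 with no minimum, 29 with a minimum of 10, and 240 when genes 1.5-fold lower were counted. Among the 4 genes, *Tm4sf5* rests on the fewest reads, about 24 in the Eomes library.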
